A study of Mus musculus and Rattus norvegicus with 11 samples.

Results

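The T cell receptor and its CD3 chains were followed through 10 mouse genes: Cd3d, Cd3e, Cd3g and Cd247 for the CD3 signalling chains, Trac, Trbc1 and Trbc2 for the constant parts of the alpha and beta chains, and Trdc, Tcrg-C1 and Tcrg-C4 for those of the delta and gamma chains. They were taken by symbol, and all 10 were among the 31053 genes of the mouse table. The table came from droplet 3' single-cell RNA sequencing (10x Genomics, version 2 chemistry, which counts unique molecular identifiers, UMIs, near transcript ends) of live-sorted cells from sciatic nerve and brachial plexus of PBS-perfused mice. Libraries 1, 3 and 4 came from C57BL/6 mice, libraries 1, 2-1 and 2-2 from NOD control mice, and libraries 1, 2 and 3 from ICAM-1-/-NOD mice (spelled ICAM-1-1/-NOD in the sample labels), written below as labelled Icam1 knockout. The labels name the NOD control group only as a control, and neuritis is not assigned to either NOD group here. C57BL/6 stands for undiseased nerve. Ages, and how the deletion was made, were not stated in the labels used. Of 16050 cell barcodes, 15672 carried a deposited cell type name. Named T cells were 333 TC (the only such name in C57BL/6) and, in NOD, 2503 CD4 and 1342 CD8, beside 1990 B cells (BC). These 4178 T cells held 94.9% of the 44352 UMIs of the 10 genes.

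A T cell recognises antigen through 1 of a pair of receptor types, an alpha-beta or a gamma-delta heterodimer, whose variable ends are built by joining gene segments and whose constant ends come from the genes counted here. Neither heterodimer signals by itself: CD3 gamma, CD3 epsilon and the zeta homodimer assemble with both and carry the tyrosine motifs that the kinase Lck phosphorylates, while CD3 delta joins the alpha-beta receptor and, in mice, is largely missing from the gamma-delta receptor. Gamma chain genes can also be transcribed in alpha-beta T cells, and Trdc and some CD3 transcripts in natural killer (NK) and innate lymphoid cells, so a transcript is not a surface receptor.

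A 3' read reaches only the end of a transcript, so copies that resemble each other there decide what the counts can keep apart. Trbc1 (chr6:41538218-41539881, plus strand, mm10) and Trbc2 (chr6:41546730-41548352, plus) are tandem copies 6849 bases apart with 95.6% identical coding bases (498 of 521). Their last 120 coding bases differ at 19 places, which are in capitals here, and the same is shown for Tcrg-C1 (chr13:19214103-19217024, plus) and its inverted copy Tcrg-C2 (chr13:19304649-19307551, minus), which differ at 3.
Trbc1: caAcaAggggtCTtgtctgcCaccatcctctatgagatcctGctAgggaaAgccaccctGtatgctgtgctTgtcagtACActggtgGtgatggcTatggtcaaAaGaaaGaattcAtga
Trbc2: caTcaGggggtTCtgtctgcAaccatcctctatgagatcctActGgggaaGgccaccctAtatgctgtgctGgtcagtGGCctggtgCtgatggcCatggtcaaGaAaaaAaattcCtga
Tcrg-C1: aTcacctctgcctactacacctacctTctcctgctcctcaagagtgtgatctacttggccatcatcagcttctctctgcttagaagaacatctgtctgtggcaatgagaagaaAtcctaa
Tcrg-C2: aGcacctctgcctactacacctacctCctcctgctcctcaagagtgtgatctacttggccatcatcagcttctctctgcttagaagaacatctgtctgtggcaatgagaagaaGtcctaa
Of the 57-base windows in the last 300 transcript bases, the read length of one of the sequencers used, 0 of 244 were shared between Trbc1 and Trbc2. Between Tcrg-C1 and Tcrg-C2, 48 of 244 (19.7%) were shared, so their UMIs are reported as uncertain. Tcrg-C4 (chr13:19344558-19352756, plus) shared 0 with either.

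The other members lie in 3 places. Cd3g (chr9:44969572-44980431, minus), Cd3d (chr9:44981786-44987339, plus) and Cd3e (chr9:44998740-45009627, minus) form a cluster in which the divergent starts of Cd3g and Cd3d are 1355 bases apart. Cd247 lies at chr1:165788681-165877277 (plus). Trdc (chr14:54142851-54148868, plus) lies 71653 bases before Trac (chr14:54220521-54224206, plus), inside the same locus. The 250 bases before the RefSeq starts (GRCm38.p6) are given for the 4 CD3 genes, the only ones of the 10 members with an entry. CACCTG or CAGGTG (an E-box form) and AGGAAG or CTTCCT (an ETS core) are in capitals.
Cd247: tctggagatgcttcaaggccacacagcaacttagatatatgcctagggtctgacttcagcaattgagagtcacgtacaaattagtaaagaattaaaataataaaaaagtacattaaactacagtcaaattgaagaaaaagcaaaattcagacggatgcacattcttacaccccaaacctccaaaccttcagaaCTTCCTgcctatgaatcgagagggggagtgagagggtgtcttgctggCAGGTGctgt
Cd3g: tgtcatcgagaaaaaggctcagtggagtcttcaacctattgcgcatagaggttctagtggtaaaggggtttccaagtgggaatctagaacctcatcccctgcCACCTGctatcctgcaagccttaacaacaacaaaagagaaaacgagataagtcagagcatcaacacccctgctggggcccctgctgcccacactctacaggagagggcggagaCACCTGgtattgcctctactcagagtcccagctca
Cd3d: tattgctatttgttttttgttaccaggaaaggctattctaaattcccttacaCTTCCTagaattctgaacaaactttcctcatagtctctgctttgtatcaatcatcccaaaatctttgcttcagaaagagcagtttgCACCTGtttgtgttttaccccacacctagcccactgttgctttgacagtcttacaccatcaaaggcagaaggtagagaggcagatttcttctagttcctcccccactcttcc
Cd3e: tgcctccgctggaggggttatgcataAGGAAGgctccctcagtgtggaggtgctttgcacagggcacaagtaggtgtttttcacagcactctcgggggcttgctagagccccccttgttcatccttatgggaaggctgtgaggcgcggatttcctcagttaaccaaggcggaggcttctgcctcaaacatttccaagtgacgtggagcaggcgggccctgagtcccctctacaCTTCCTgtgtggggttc
In genome order and gene strand these are Cd247 (chr1:165788431-165788680, plus), Cd3g (chr9:44980432-44980681, minus), Cd3d (chr9:44981536-44981785, plus) and Cd3e (chr9:45009612-45009861, minus). Gene spans above are from GENCODE, and the RefSeq start of Cd3e lies inside that span, so its window overlaps the span's end. The E-box form was in 3 of the 4 windows, all but Cd3e, and in 17.2% of 32851 windows of that length. The ETS core was in 3 of 4, all but Cd3g, and in 29.5% of all windows. TGTGGT or ACCACA, a RUNX core, was in 0 of 4 against 14.05%, and AGATAA or TTATCT, the form known for GATA factors, in 1 of 4 against 9.99%. A match is only a run of letters.

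Several features of the libraries stand beside every value below. Icam1 itself had 248, 262 and 255 CPM (UMIs of a gene per 1000000 UMIs of the same library or sum) in the libraries labelled Icam1 knockout against 44.4 to 94.5 in the other 6, and a 3' tag checks neither genotype nor protein. NOD control 1 held 39 CD4 and 3 CD8 cells, and its CD4 cells had no UMI of Trac or Cd4; innate lymphoid type 2 (ILC2) markers stood there at 3095 CPM with 7 of 9 genes found (Il13 and Hs3st1 at 0), the NK list at 0 of 9 and the alpha-beta list at 197 CPM with 2 of 8. So the name CD4 is not borne out by its markers in that library, and results are given with and without it. Libraries 2-1 and 2-2 share a number and were summed for tests as NOD control 2. Its CD4 cells had Cd4 at 72.6 CPM (22 UMIs), below Cd8a (125 CPM, 38 UMIs) and Cd8b1 (106 CPM, 32 UMIs). With the knockout label Cd4 had 253, 238 and 220 CPM in CD4 cells. Cd8a had 77.6, 74.3 and 90.6 CPM there, and Cd8b1 38.8, 45.5 and 46.9 CPM. Leaving out NOD control 1 thus does not leave control CD4 cells with more Cd4 than Cd8a or Cd8b1 transcripts. Median UMIs per T cell were 505.5 to 719 in NOD control, 769 to 1150 in C57BL/6 and 852 to 1149 with the knockout label, with mitochondrial shares of 0.597% to 1.80%, 0.877% to 3.84% and 2.05% to 2.27%. Of 15887 barcode sequences 162 occurred in more than 1 library. The labels do not say that libraries came from separate animals, so p-values measure only the spread between these libraries, which may be technical.

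Cells that should lack the receptor also held its transcripts, at levels that differed between groups. The 10 genes together stood at 385, 456 and 485 CPM in nerve cells (fibroblasts, Schwann and endothelial cells) of the libraries labelled Icam1 knockout, which was 3.59%, 4.46% and 4.66% of their T cell level. B cells of these libraries had 649, 579 and 713 CPM, or 6.06%, 5.67% and 6.85%. In NOD control 2-1 and 2-2 nerve cells had 99.96 and 63.2 CPM, 1.54% and 1.11% of the T cell level, in NOD control 1 3.65 CPM, and in C57BL/6 1.60, 3.60 and 20.9 CPM. This background was highest in the libraries with the label and small beside the T cell values themselves. Free RNA, doublets and misnamed cells cannot be told apart in it.

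Among CD4 cells, all 4 CD3 chain transcripts were lowest in NOD control 1, intermediate in NOD control 2-1 and 2-2, and highest with the knockout label. Cd3e, the epsilon chain that pairs with both CD3 gamma and CD3 delta, had 147, 1080.0 and 876 CPM in CD4 cells of NOD control 1, 2-1 and 2-2 and 1546, 1645 and 1436 CPM with the knockout label (1542 ± 104.5, SD, n = 3). The groups did not overlap, and the share of CD4 cells with a Cd3e UMI was 5.13%, 44.4% and 44.5% against 74.1%, 70.5% and 60.9%. In CD4 cells of NOD control 1 a single UMI makes 49.1 CPM, so the values of that library rest on few UMIs. The share of all genes whose groups did not overlap is not given here. Fewer cells with a transcript and fewer transcripts per cell cannot be told apart in such sums. Cd3g, the CD3 gamma chain, had 49.1, 840.0 and 826 CPM against 2189, 2057 and 1915 (mean 2054 ± 137, SD, n = 3), so its lowest library with the label lay above its highest control library by more than the spread. Cd247, the zeta chain, had 0, 72.0 and 135 CPM against 424, 371 and 398. Cd3d, the delta chain of CD3, had 49.1, 872 and 814 CPM against 1071, 1117 and 1053, which were closer together.

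With the knockout label, cells named CD8 had more Cd3g, Cd3e and Cd3d transcripts than cells named CD4 and fewer of Cd247. Cd3g had 2793, 2493 and 2749 CPM there, above the CD4 cells of the same library in all 3. Cd3e (1762, 1721 and 1801 CPM) and Cd3d (1227, 1221 and 1230 CPM) were also higher in CD8 than in CD4 cells of each library, while Cd247 (293, 314 and 333 CPM) was lower in each; these differences between names were not tested. CD8 cells of NOD control 2-1 and 2-2 were 22 and 23, with Cd3g at 841 and 339 CPM and Cd3e at 797 and 904 CPM.

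In C57BL/6 the TC cells of libraries 1, 3 and 4 differed widely. Cd3e had 146, 277.5 and 669.6 CPM, Cd3g 359, 601 and 1356 CPM and Cd3d 549, 470.2 and 1111 CPM, with library 4 highest for each. Cd247 was highest in library 1, with 168, 69.4 and 97.99 CPM. All 10 genes together reached 2779, 3955 and 7047 CPM (4594 ± 2205, SD, n = 3), against 1179, 6504 and 5960 in CD4 cells of NOD control 1, 2-1 and 2-2 and 10577, 10354 and 9899 with the knockout label.

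**Figure D1:**
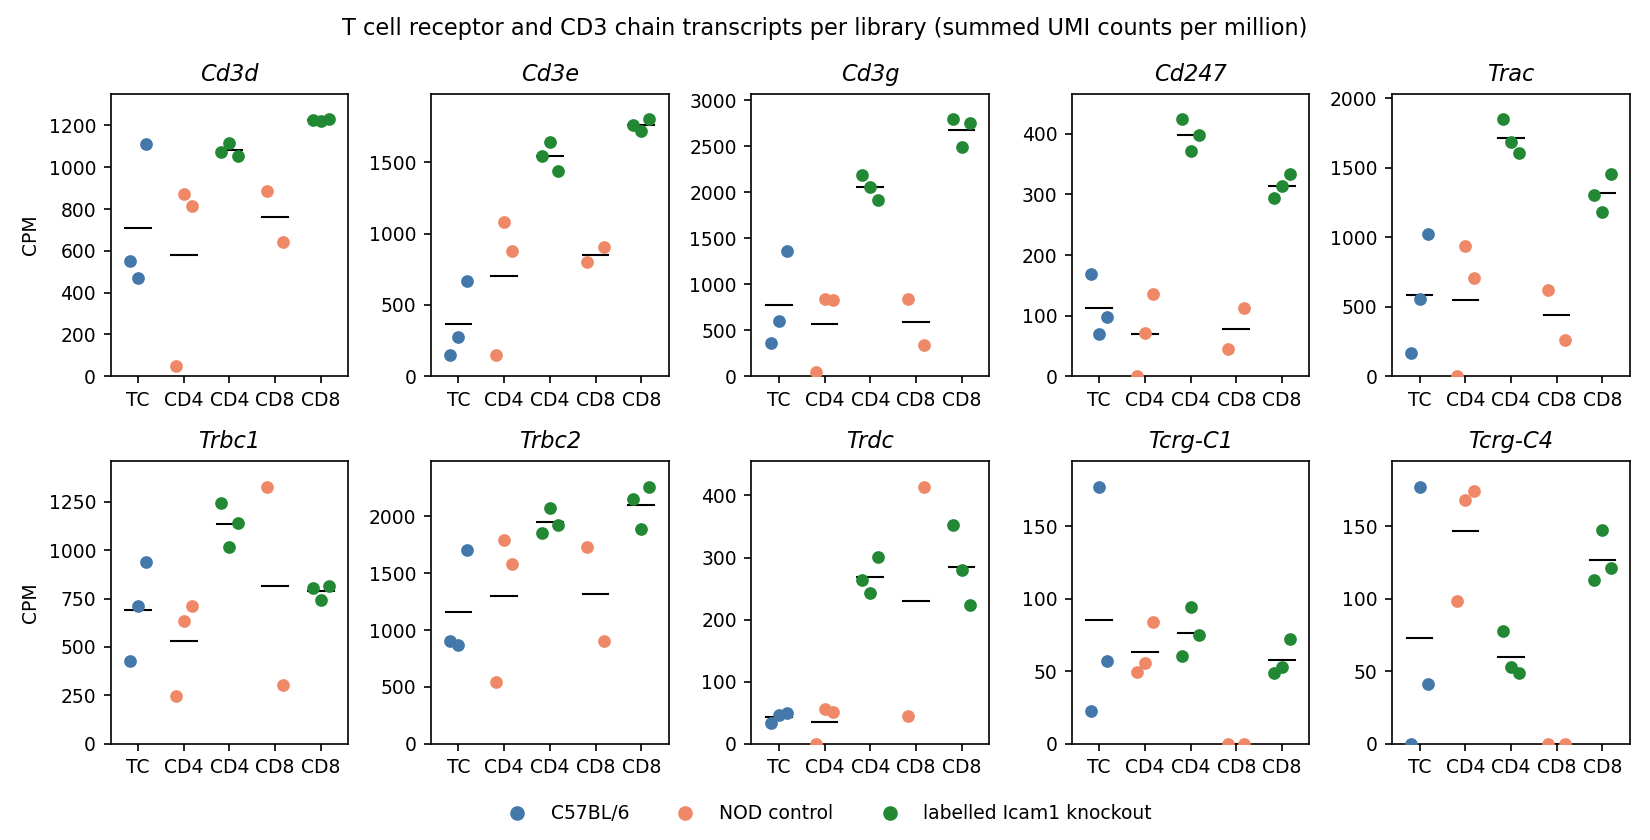
CPM of the 10 genes from summed UMI counts (y axis) by deposited cell name (x axis), 1 point per library with at least 20 cells and a bar at the mean of the points; colours mark C57BL/6, NOD control and the libraries labelled Icam1 knockout. In CD4 cells every point of the labelled libraries lies above every NOD control point for Cd3d, Cd3e, Cd3g, Cd247, Trac, Trbc1, Trbc2 and Trdc. Tcrg-C4 has the opposite order (77.6 CPM or less against 98.3 or more), and Tcrg-C1 overlaps. The share of all genes whose groups stand apart in this way is not given. The NOD control 1 point of Tcrg-C4 in CD4 cells is 2 UMIs in 2 cells.

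The alpha and beta constant genes followed CD3 in part. Trac, the only alpha constant gene, had 0, 936 and 708 CPM in CD4 cells of NOD control 1, 2-1 and 2-2 and 1848, 1687 and 1607 CPM with the knockout label. Trbc1 had 246, 632 and 713 CPM against 1244, 1017 and 1140 CPM. Trbc2 had 540, 1792 and 1578 CPM against 1855, 2070.4 and 1925 CPM, so library 2-1 came close to the lowest library with the label. In CD8 cells with the label Trac was lower than in CD4 cells of each library (1305, 1184 and 1456 CPM), as was Trbc1 (804, 743 and 817 CPM), whereas Trbc2 (2149, 1889 and 2261 CPM) was higher in libraries 1 and 3 and lower in library 2. TC cells had Trac at 168, 555 and 1021 CPM, Trbc1 at 426, 709 and 939 CPM and Trbc2 at 908, 871 and 1707 CPM.

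A T cell joins its beta chain to 1 of the 2 constant genes, and the counts show both genes in use. Among 3335 T cells with the knockout label 403 had UMIs of Trbc1 alone, 1443 of Trbc2 alone, 986 of both and 503 of neither. Of the 835 with at least 5 beta constant UMIs, 123 had at least 80% from Trbc1, 413 at least 80% from Trbc2 and 299 lay between. Trbc1 made up 40.1%, 32.9% and 37.2% of beta constant UMIs in CD4 cells of libraries 1, 2 and 3 with the label (36.8% ± 3.62, SD, n = 3) and 27.2%, 28.2% and 26.5% in CD8 cells (27.3% ± 0.844). The CD8 share was lower in each of the 3 libraries, and the Clopper-Pearson intervals did not overlap within any of them (95%, counting error only; for library 2, 30.9% to 35.0% in CD4 and 25.9% to 30.6% in CD8). In NOD control 2 the order was the other way, 29.0% in CD4 (25.7% to 32.5%) and 37.6% in CD8 (28.2% to 47.8%), with overlapping intervals. TC cells had 31.9%, 44.9% and 35.5%.

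**Figure D2:**
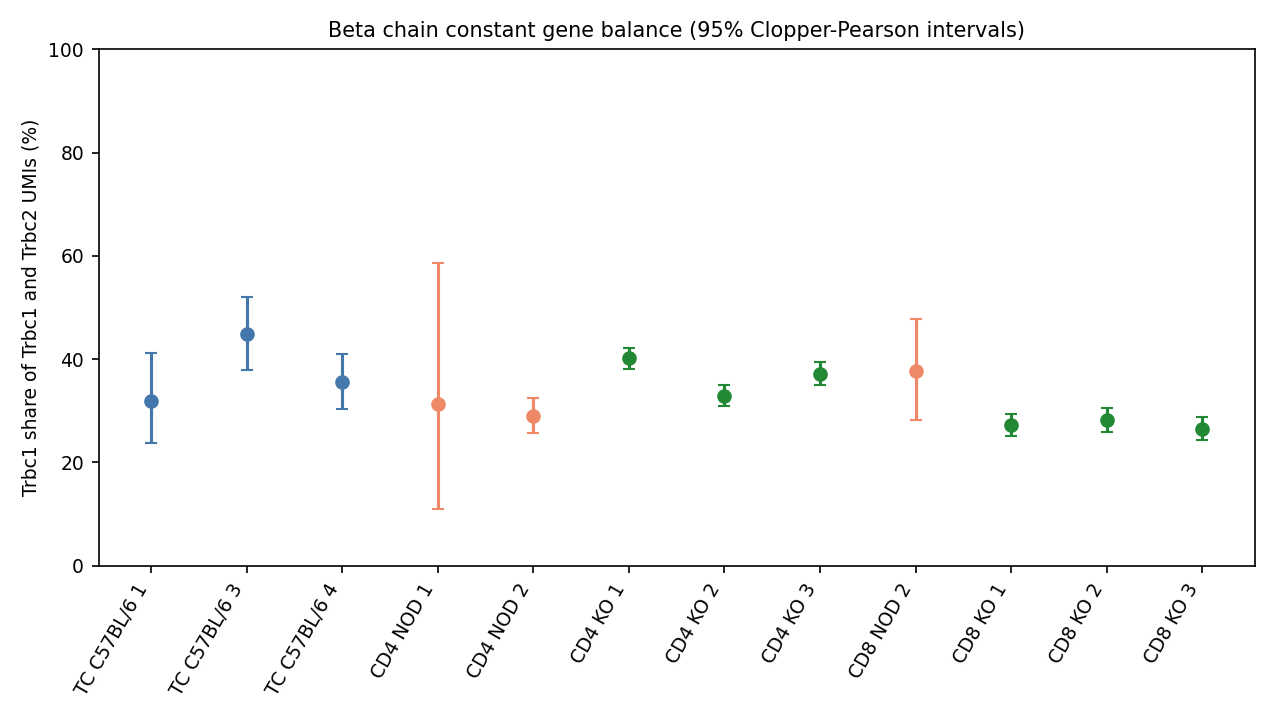
Trbc1 as a percentage of Trbc1 and Trbc2 UMIs (y axis) per sample and cell name (x axis), with 95% Clopper-Pearson intervals that cover counting error only; KO marks the libraries labelled Icam1 knockout. The 3 CD8 points with the label lie between 26.5% and 28.2%, below the 3 CD4 points between 32.9% and 40.1%.

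The gamma-delta genes were scarcer and did not move together. Trdc, the delta constant gene, had 0, 56.0 and 50.6 CPM in CD4 cells of NOD control 1, 2-1 and 2-2 against 263, 242.5 and 301.5 CPM with the knockout label (269 ± 29.9, SD, n = 3). Tcrg-C4 had the opposite order, with 98.3, 168.0 and 174 CPM against 77.6, 53.0 and 48.4 CPM (59.7 ± 15.7). Its value in NOD control 1 is 2 UMIs in 2 cells. Tcrg-C1 overlapped between the groups, with 49.1, 56.0 and 84.3 CPM against 60.4, 94.0 and 75.0 CPM. The shares of CD4 cells with a Tcrg-C4 UMI overlapped between the groups, with 5.13%, 9.27% and 9.17% in NOD control and 6.06%, 3.92% and 3.55% with the label. In TC cells Trdc had 33.6, 46.3 and 49.0 CPM, while Tcrg-C1 (22.4, 177 and 57.2 CPM) and Tcrg-C4 (0, 177 and 40.8 CPM) were highest in library 3. CD8 cells with the label had Trdc at 352, 280.0 and 224 CPM and Tcrg-C4 at 113, 147 and 121 CPM, the latter above CD4 cells in each library.

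Each cell was then put in 1 of 5 receptor classes from its UMIs: alpha-beta (Trac, Trbc1 or Trbc2 without a gamma-delta gene), gamma-delta (Trdc, Tcrg-C1 or Tcrg-C4 without an alpha-beta gene), both, CD3 only, or none of the 10. Alpha-beta was the commonest class in every T cell name and library with at least 20 cells but CD4 cells of NOD control 1. There, 11 of 39 cells were alpha-beta, 3 gamma-delta, 2 CD3 only and 23 none. Alpha-beta took 69.5% of the 423 CD4 cells of NOD control 2 and 85.7%, 85.2% and 82.2% with the knockout label. Cells with none of the 10 genes were 9.93% of CD4 cells in NOD control 2 and 6 of 594, 6 of 715 and 17 of 732 with the label. TC cells were alpha-beta in 55.9%, 64.4% and 79.3% of cells of C57BL/6 1, 3 and 4, and library 3 had 11 gamma-delta cells of 101 against 1 of 111 and 3 of 121.

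Gamma-delta cells by this rule made up a larger part of CD4 cells in NOD control than with the label, and mixed cells a smaller one. The gamma-delta share was 6.92% ± 1.09 (SD, n = 2) in NOD control and 1.66% ± 0.132 (SD, n = 3) with the label, a difference of -5.26 percentage points (exact two-sided permutation test over samples, p = 0.1, adjusted p = 0.167 over 15 shares). The mixed share was 2.36% ± 3.34 and 8.15% ± 0.958 (exact permutation p = 0.1). The alpha-beta share was 48.9% ± 29.2 and 84.4% ± 1.86, and the share with none 34.5% ± 34.7 and 1.39% ± 0.812, with p = 0.1 for each by the same exact permutation test. CD3 only, at 7.41% ± 3.23 and 4.43% ± 1.77, overlapped between the groups (exact permutation p = 0.4, adjusted p = 0.545). With 2 against 3 samples, p = 0.1 is the smallest that the exact permutation test over 10 splits allows, so none of these shares could pass a threshold of 0.05. Over CD4 and CD8 together all 5 shares stood apart with p = 0.1 by the exact permutation test, the mixed share being 2.67% ± 3.78 and 13.4% ± 1.81.

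The classes were also counted at equal depth and in cells that should lack the receptor. Thinned to 400 UMIs a cell (11 shallower cells of NOD control 2 left out), the mixed share of CD4 cells was 2.67% in NOD control 2 and 3.20%, 2.94% and 3.55% with the label, and the gamma-delta share 5.34% against 3.70%, 3.08% and 3.14%. The thinned alpha-beta share was 25.6% in NOD control 1, 60.4% in NOD control 2 and 76.8%, 74.1% and 73.1% with the label, and 44.1%, 44.6% and 60.3% in TC cells. Cells that should lack these genes were counted first without thinning. B cells with the label counted as alpha-beta in 21.9%, 13.9% and 20.8% of cells and nerve cells in 24.0%, 17.1% and 22.5%. The unthinned share of B cells was 3.77% in NOD control 2 and 0 in C57BL/6. After thinning, B cells with the label stood at 7.78%, 8.66% and 11.6% and nerve cells at 11.2%, 6.85% and 9.15%. Thinned B cells of NOD control 2 stood at 2.14%. Gamma-delta took 0.865% to 1.84% of B cells with the label before thinning. The mixed shares of CD8 cells with the label (24.7%, 21.5% and 18.7%) were 8.14%, 4.93% and 5.93% after thinning, so a mixed class rests in part on how many UMIs a cell has. The rule matters as well: with Trac alone for alpha-beta and Trdc alone for gamma-delta, the gamma-delta share of CD4 cells differed by 3.60 percentage points in favour of the label. With 2 UMIs needed for a class, in cells with at least 2 constant gene UMIs, the alpha-beta difference in CD4 cells was -2.04 percentage points in place of 35.5.

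**Figure D3:**
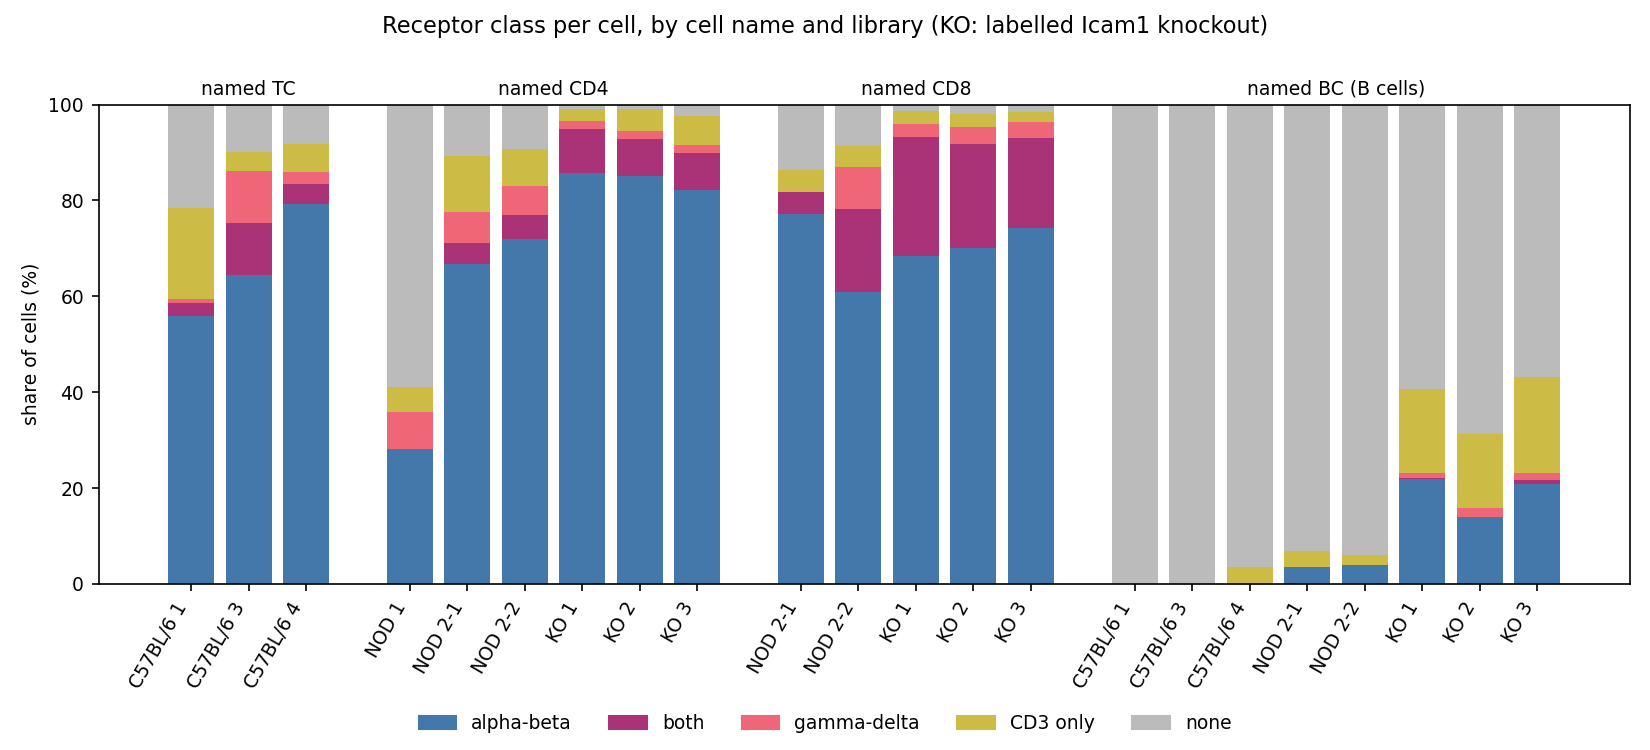
Stacked bars of the percentage of cells (y axis) in 5 receptor classes for each library (x axis), grouped by deposited cell name and shown for libraries with at least 20 cells; NOD is NOD control and KO the libraries labelled Icam1 knockout. CD4 cells of NOD control 1 are mostly without any of the 10 genes (23 of 39), and B cells with the label show an alpha-beta background of 13.9% to 21.9%.

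Most Trdc came from cells with several copies. In CD4 cells with the knockout label 125 cells held 536 Trdc UMIs, 497 of them in the 86 cells with 2 or more, and 43 cells had at least 5. In CD8 cells with the label 190 cells held 482 UMIs, with 108 cells at 2 or more and 26 at 5 or more. NOD control had 9 CD4 and 8 CD8 cells with Trdc, 16 and 13 UMIs, and none with 5. A gamma gene stood beside Trdc in 67 of 125 CD4 and 67 of 190 CD8 cells with the label, in 7 of 9 CD4 cells of NOD control and in 0 of 8 CD8 cells. Of cells with Trdc, 98 of 125 (CD4) and 155 of 190 (CD8) with the label also had an alpha-beta UMI, but 32 and 35 had Trac.

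Gamma genes often occurred without Trdc. Tcrg-C1 or Tcrg-C4 occurred without Trdc in 40 CD4 cells of NOD control, in 27 TC cells, and in 74 CD4 and 130 CD8 cells with the label. Among cells with Tcrg-C4, Trac was found in 1 of 41 CD4 cells of NOD control and 0 of 21 TC cells, against 41 of 90 CD4 and 91 of 155 CD8 cells with the label. In NOD control and C57BL/6 a Tcrg-C4 cell was thus seldom one with Trac at this depth, whereas with the label many had both. Trac detection over all cells differed as well. Mean shares of cells with Trac were 18.1% ± 25.6 (SD, n = 2) for CD4 cells of NOD control and 33.1% for TC cells. With the label they were 67.7% for CD4 and 63.3% for CD8 cells. The NOD control mean joins NOD control 1, whose CD4 cells had no Trac UMI, and NOD control 2. Of the 423 CD4 cells of NOD control 2, 126 had Trac with a beta constant gene and 27 had Trac without one. That sample held 39 of the 41 Tcrg-C4 cells, including the 1 with Trac. Whether Tcrg-C4 cells depart from these shares was not tested.

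Tcrg-C2, a gamma constant gene beside the members, was highest in CD8 cells with the label. It had 318.6, 342 and 337 CPM there, in 26.7%, 25.8% and 22.6% of cells, against 82.0, 100.04 and 73.4 CPM in CD4 cells of the same libraries. Of the 105, 115 and 103 CD8 cells with it, 102, 113 and 102 had an alpha-beta UMI and 14, 16 and 12 had Trdc. NOD control 2 had 5 UMIs in CD4 cells (16.5 CPM), TC cells had 1 UMI, and B cells with the label had 21.0, 7.43 and 10.8 CPM. Variable and joining segments gave little at the 3' end: 98 of 256 had a UMI in T cells, 629 UMIs in all against 20320 of the 6 constant genes.

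Markers of other lymphocytes differed between the receptor classes. In NOD control 2 the 46 CD4 cells with a gamma-delta gene held the ILC2 list at 2302 CPM (9 of 9 genes), against 459 CPM in the 294 alpha-beta cells. Their CD3 transcripts were low: Cd3d had 106 CPM against 1081, Cd3e 212 against 1221, Cd3g 609 against 985, and Cd247 0 against 140. C57BL/6 3 had the same order, with the ILC2 list at 4161 CPM in 22 such TC cells and 1545 CPM in 65 alpha-beta cells, and Cd3e at 57.8 against 436 CPM. In the 24, 10 and 10 TC cells with none of the 10 genes the NK list stood at 4392, 13206 and 18421 CPM, from few cells, against 548, 3090 and 899 CPM in alpha-beta cells, all 3 libraries going the same way. The part of ILC2 or NK cells in the values above was not tested.

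Receptor chains were then compared between the libraries labelled Icam1 knockout (n = 3) and NOD control (n = 2) in summed CD4 cells, to ask which chains differ within cells of the same name. With edgeR's quasi-likelihood test 6 of the 10 members were higher and 1 was lower with the label, where 10.8% of 6866 tested genes passed, 6.67% higher and 4.17% lower. The median log2 fold change was 0.97 over the members and 0.07 over all tested genes. Of the CD3 chains, Cd247 (1.83 ± 0.31, SE), Cd3g (1.67 ± 0.36) and Cd3e (1.02 ± 0.34) were higher, with Benjamini-Hochberg adjusted p = 2.03e-07, 0.000116 and 0.0295. Cd3d, at 0.69 ± 0.32, did not pass (adjusted p = 0.163). Trac (1.47 ± 0.35, adjusted p = 0.000739) and Trbc1 (0.92 ± 0.33, adjusted p = 0.0449) were higher, and Trbc2 was at 0.58 ± 0.34 (adjusted p = 0.307). The largest difference was in Trdc (2.29 ± 0.36, adjusted p = 3.10e-08), while Tcrg-C4 was lower (-1.61 ± 0.31, adjusted p = 1.33e-05) and Tcrg-C1 stood at -0.05 ± 0.39 (adjusted p = 0.959).

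These calls depended on the control samples and on the model. Without NOD control 1, whose CD4 cells lacked Trac, the same counts of 6 higher and 1 lower held among 16.1% of 7666 genes, on 1 control sample assumed to vary like the others. The values were then smaller for Cd3g (1.12 ± 0.11, edgeR adjusted p = 9.31e-17), Trac (0.91 ± 0.12), Trbc1 (0.55 ± 0.13) and Cd3e (0.50 ± 0.12), and near the first for Cd247 (1.68 ± 0.22), Trdc (2.16 ± 0.29) and Tcrg-C4 (-1.70 ± 0.29). Without NOD control 2, which leaves the 39 cells of NOD control 1, 8 members were higher and 0 lower among 3.14% of 7475 genes, with Cd3d (5.03) and Trbc2 (2.43) then passing and Tcrg-C4 not; the median log2 fold change of all genes was then 1.48. Cd3e and Trbc1 missed the threshold when any 1 library with the label was left out. DESeq2 called 2 members, Cd247 (adjusted p = 0.0210) and Trdc (adjusted p = 0.00623), among 2.58% of 6866 genes. When UMIs of all 3 libraries with the label were added up to 1 sample, edgeR called 0 of 10, with 2 at an unadjusted p under 0.05, among 1.34% of 5840 genes. Depth, mitochondrial share and the level of the 10 genes in B and nerve cells also differed between the groups as given above, and their part was not tested.

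**Figure D4:**
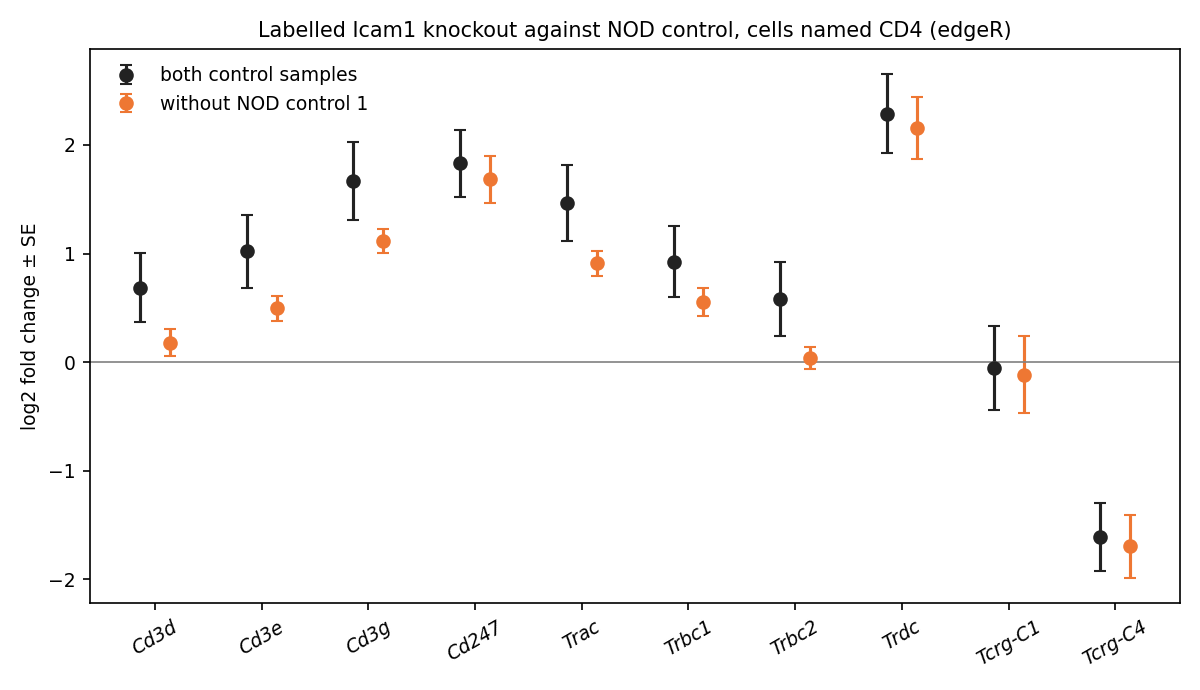
Log2 fold change with SE (y axis) of the 10 genes (x axis) between libraries labelled Icam1 knockout (n = 3) and NOD control in summed CD4 cells, from edgeR fits with both control samples and without NOD control 1. Leaving out NOD control 1 moved Cd3g from 1.67 to 1.12 and Trac from 1.47 to 0.91, and left Trdc above 2 and Tcrg-C4 below -1.6.

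Over CD4 and CD8 cells summed together, 5 members were higher and 1 lower, where 11.6% of 8285 tested genes passed (6.46% higher and 5.13% lower). Cd3g (1.89 ± 0.34), Cd247 (1.77 ± 0.30), Trdc (1.72 ± 0.30), Trac (1.37 ± 0.32) and Cd3e (1.13 ± 0.32) passed the edgeR test as higher and Tcrg-C4 (-0.79 ± 0.28, adjusted p = 0.0404) as lower. Trbc1 (0.68 ± 0.29) passed in CD4 cells and missed here (edgeR adjusted p = 0.120). The mix of names differed too, with CD8 cells making up 48 of 510 T cells in NOD control and 1294 of 3335 with the label. Cd3e and Tcrg-C4 no longer passed when any 1 library with the label was left out, nor Tcrg-C4 without NOD control 2. Without NOD control 1, 7 members were higher and 1 lower, among 16.3% of 9217 genes, and DESeq2 called 3, among 3.36% of 8285.

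Between the strains no member passed. In T cells of NOD control (n = 2) against C57BL/6 (n = 3), edgeR tested 8 members and called 0, where 1.29% of 1856 genes passed (0.431% higher and 0.862% lower). None had an unadjusted p under 0.05, and DESeq2 called 0 as well. Log2 fold changes ran from -0.84 ± 0.69 for Cd3g and -0.84 ± 0.80 for Cd247 to 0.50 ± 0.68 for Cd3e and 0.54 ± 0.87 for Tcrg-C4, with adjusted p from 0.994 to 0.999. Standard errors lay between 0.53 and 0.87, and Cd3g at -0.84 had an unadjusted edgeR p of 0.251. Differences of about the size of these errors were thus not detectable here, and only clearly larger ones could have passed. Alpha-beta cells made up 66.5% ± 11.9 of TC cells (SD, n = 3) and 50.2% ± 27.2 of T cells in NOD control (SD, n = 2), which overlapped (exact permutation p = 0.5); without NOD control 1 the difference turned from -16.3 to 2.93 percentage points. Strain and cell naming differ together here, since C57BL/6 has TC and NOD has CD4 and CD8, and cannot be told apart. Fcer1g (-3.46) and Tyrobp (-3.21), adaptor genes of NK and myeloid receptors, were lower in NOD control (edgeR adjusted p = 0.0267 and 0.0334).

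Other genes of the pathway were counted in the same edgeR test of CD4 cells against NOD control, in which 10.8% of all genes passed. Of 3 co-receptor genes Cd4 was higher with the label (1.65 ± 0.34) and Cd8b1 lower (-1.31 ± 0.38), while Cd8a was at -0.68 ± 0.33 (adjusted p = 0.192). Of 18 genes of the first signalling steps 1 was higher, the kinase gene Lck (0.85 ± 0.30, adjusted p = 0.0495), and 1 lower, the Tec family kinase gene Txk (-0.68 ± 0.23), a share close to that of all genes. The adaptor gene Lat (0.60 ± 0.30) did not pass. Of 15 genes that dampen the signal 4 were higher and 0 lower: Cd6 (1.46 ± 0.31), Sla (1.22 ± 0.35), the phosphatase gene Ptpn22 (1.16 ± 0.29) and Cd5 (1.09 ± 0.34). Of 7 costimulation genes 4 were higher and 0 lower: Icos (2.44 ± 0.34), Cd226 (1.90 ± 0.66), Cd28 (1.78 ± 0.33) and the adhesion receptor gene Cd2 (1.47 ± 0.31).

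Genes induced by receptor signalling were 2 higher and 0 lower of 9 tested. Nr4a2, a nuclear receptor gene, had 337 UMIs in CD4 cells with the label and 6 in NOD control (log2 3.01 ± 0.49, edgeR adjusted p = 7.89e-08). Nr4a3 passed with 103 UMIs against 3, a rate ratio of 5.56 (95% exact interval 1.85 to 27.4, counting error only). Nr4a1 (0.30 ± 0.26) and the activation marker Cd69 (0.29 ± 0.32) did not pass. Median log2 fold changes were -0.68 for co-receptors, 0.34 for signalling, 0.28 for dampening, 1.47 for costimulation and 0.30 for induced genes, beside 0.07 for all genes. Of the 3 genes of other adaptor chains (Fcer1g, Tyrobp, Hcst) 0 passed in edgeR, with 0 at an unadjusted p under 0.05 and 0 in DESeq2, and the 4 thymic and recombination genes were too low to test. Without NOD control 1, in which Cd4, Icos, Cd226 and Cd5 had no UMI, 16.1% of 7666 genes passed. The counts were then 1 higher and 2 lower of 3 co-receptors (Cd8a then passed), 2 and 1 of 18 signalling genes (close to the share of all genes), 5 and 0 of 15 dampening genes, and 4 and 0, 2 and 0 as before for costimulation and induced genes.

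Within the libraries labelled Icam1 knockout, cells with a gamma-delta gene (classes gamma-delta and both) were compared with alpha-beta cells, with the library as a block, to ask what else differs between the classes. This comparison was added after the data were seen. The constant genes of the members were used to form the classes, so they are not tested, and the CD3 genes and all others are. Among CD4 cells, 199 with a gamma-delta gene (median 1288, 921.5 and 950 UMIs in libraries 1, 2 and 3) stood against 1720 alpha-beta cells (1001, 830 and 765.5 UMIs). CD3 levels were close in these classes: 1 of 4 CD3 genes was higher, where 3.07% of 4334 tested genes passed (2.19% higher and 0.877% lower, or 95 and 38 genes). Without a filter on low counts 64 genes were higher and 86 lower, with the median of all genes at -0.40. Cd3g had 2564, 2883 and 2357 CPM in the first and 2189, 2022 and 1916 CPM in the second, higher in 3 of 3 libraries (log2 0.36 ± 0.09, edgeR adjusted p = 0.0259), but it missed the threshold when any 1 library was left out. Cd3d (0.13 ± 0.12), Cd3e (0.10 ± 0.11) and Cd247 (0.29 ± 0.17) did not pass, and Cd3d and Cd3e turned slightly negative without a filter on low counts.

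These CD4 cells carried transcripts known from gamma-delta T cells that make interleukin 17. Of the 7 gamma-delta markers that are not members, 4 could be tested and 3 were higher: the kinase gene Blk (17 UMIs in 16 cells against 7 in 7), the cytokine gene Il17a (41 UMIs in 16 cells against 48 in 12; log2 2.62 ± 0.45) and the scavenger receptor gene Cd163l1. Cd163l1 had 77 UMIs in 41 of 199 cells against 2 UMIs in 2 of 1720, a rate ratio of 278 (95% exact interval 74.3 to 2334). The activating receptor gene Klrk1 (2.99 ± 0.27) and Spry2 (3.26 ± 0.33), a feedback inhibitor of kinase signalling, were also higher by edgeR. Tcrg-C2 stood at 2.68 ± 0.29, but its reads can be shared with Tcrg-C1, which helped to form the class, so this is a description. Among the largest changes on the lower side were Izumo1r (-1.91 ± 0.28), the folate receptor family gene also found on regulatory T cells, and Slamf6 (-2.94 ± 0.48).

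On the pathway lists few genes passed between the CD4 classes. Of 3 co-receptor genes 0 were higher and 1 lower, Cd4 (-1.33 ± 0.28), which was also the only 1 of 6 alpha-beta T markers to pass. Of 15 signalling genes Lck (-0.81 ± 0.16) was lower and 0 were higher. Of 14 dampening genes Lax1 (2.03 ± 0.48) was higher and Cd6 (-1.23 ± 0.25) lower. Of 7 costimulation genes Cd226 (1.47 ± 0.38) was higher and Cd28 (-1.07 ± 0.16) and Cd2 (-1.10 ± 0.18) lower. Of 7 induced genes Cd69 (0.44 ± 0.12) was higher and 0 were lower. Markers of other cells in the same comparison were the NK list, with 481, 826 and 819 CPM against 135, 165 and 226 CPM (2 of 3 tested genes higher), and the ILC2 list, with 1047, 1141 and 1143 CPM against 809, 811 and 860 CPM (Arg1 and Rora higher of 5). Their part was not tested.

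Among CD8 cells the same split gave another pattern. The 320 cells with a gamma-delta gene (median 1513.5, 1324 and 1143 UMIs) were lower in 3 of 4 CD3 genes than the 920 alpha-beta cells (1312, 1056 and 975.5 UMIs), where 4.00% of 3947 tested genes passed (2.51% higher and 1.49% lower, or 99 and 59 genes; 83 and 85 without a filter on low counts). Cd3e had 1307, 1129 and 1454 CPM against 2044, 2088 and 1977 CPM (log2 -0.66 ± 0.09, edgeR adjusted p = 8.76e-06). Cd3d (-0.48 ± 0.11, adjusted p = 0.00473) and Cd3g (-0.38 ± 0.08, adjusted p = 0.00214) were lower as well, and Cd247 (-0.47 ± 0.19) did not pass. Cd3e passed without any 1 library; Cd3g missed the threshold without library 1 or 2, and Cd3d without library 2.

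Of 9 tested NK markers 8 were higher in these CD8 cells, and the list stood at 4502, 4510 and 3226 CPM against 1774, 1527 and 1644 CPM with 9 of 9 genes found in each. Of the 7 gamma-delta markers that are not members, 1 could be tested, and it did not pass (log2 -1.24). Among markers of other cells, the B cell gene Ighm was higher (1 of 2 tested). The myeloid gene Lyz2 (1 of 1 tested) and the fibroblast gene Dcn (1 of 2) were lower. Tyrobp (2.35 ± 0.16) and Fcer1g (2.15 ± 0.14), the adaptor genes, Xcl1 (2.19 ± 0.13), a chemokine gene, and Klra1 (2.46 ± 0.18), an NK receptor gene, were among the higher genes by edgeR. On the pathway lists, Cd8a (-1.26 ± 0.14) and Cd8b1 (-1.29 ± 0.20) were lower of 3 co-receptor genes and Lat (-0.81 ± 0.16) and Lck (-0.39 ± 0.11) of 15 signalling genes, with 0 higher in each. Of 14 dampening genes Ptpn6 (0.99 ± 0.21) was higher and Cd5 (-1.46 ± 0.37) and Cd6 (-1.19 ± 0.21) lower. Of 7 costimulation genes Cd226 (1.75 ± 0.49) was higher and Icos (-1.06 ± 0.21), Themis (-1.06 ± 0.28) and Cd28 (-0.53 ± 0.15) lower. Of 5 induced genes Cd69 (0.49 ± 0.13) was higher and 0 were lower. Tcrg-C2 was at 0.54 ± 0.18, with the same limit as above. The 5, 9 and 7 CD8 cells with none of the 10 genes had the NK list at 7124, 7781 and 6266 CPM, values that rest on very few cells. The part of NK cells under the name CD8 was not tested beyond these values, and whether the CD4 and CD8 patterns differ was not tested.

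**Figure D5:**
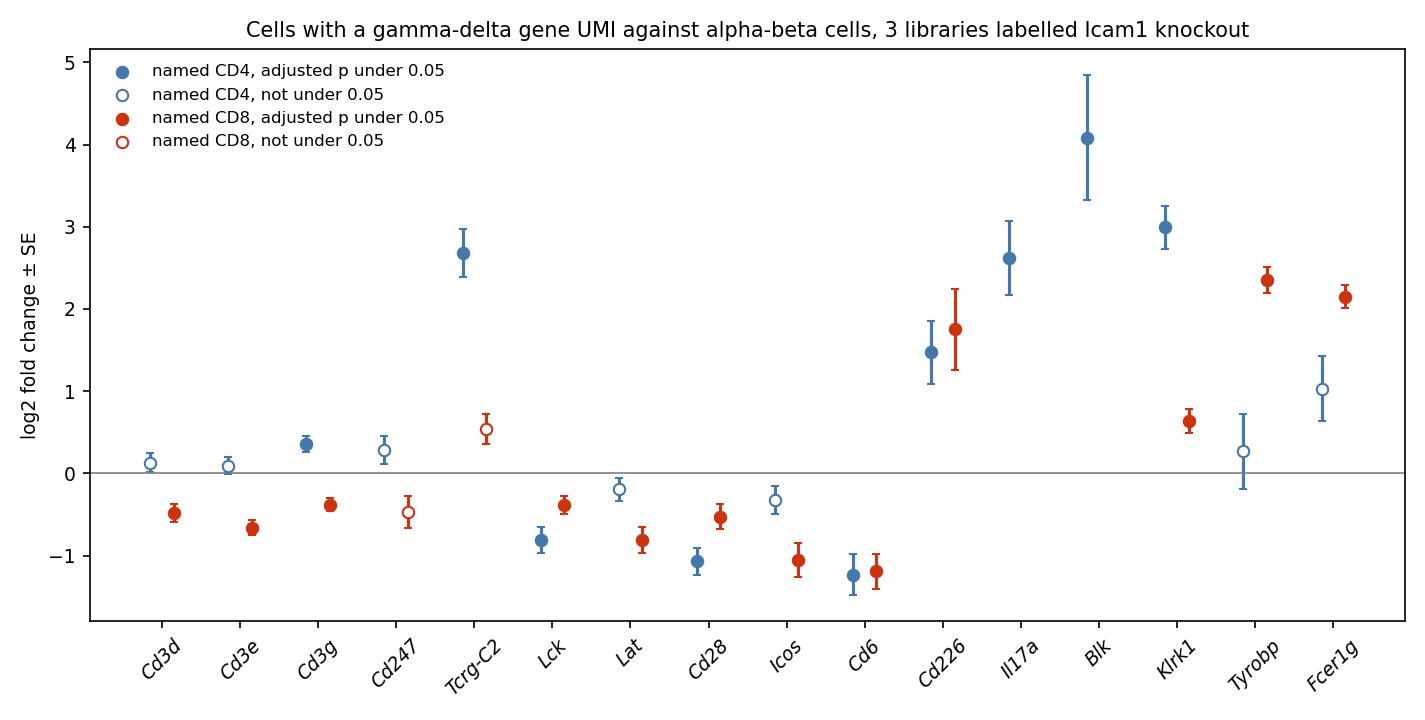
Log2 fold change with SE (y axis) of CD3 and other genes (x axis) between cells with a gamma-delta gene UMI and alpha-beta cells in the 3 libraries labelled Icam1 knockout, for cells named CD4 and CD8; filled points passed the edgeR test at an adjusted p of 0.05, and Tcrg-C2, which can share reads with a class gene, is a description. Cd3e lies at 0.10 in CD4 and -0.66 in CD8 cells, and Tyrobp and Fcer1g lie above 2 in CD8 cells.

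Across 22 sums of a lymphoid type in a library, with B cells included, 6241 genes were likened to Cd3e on the log2(CPM + 10) scale. Outside the members, the genes most like Cd3e were Ms4a4b (Pearson r = 0.979), Lck (0.971), Lat (0.964), Sh2d1a (0.951) and Thy1 (0.950). Among the members, r with Cd3e was 0.972 for Cd3g, 0.970 for Trbc2, 0.958 for Cd3d, 0.955 for Trbc1 and 0.941 for Trac. It was 0.902 for Trdc and 0.896 for Cd247, and lower for Tcrg-C1 (0.718) and Tcrg-C4 (0.708). The genes outside the members most like Trdc were Prkch (0.954), Il2rb (0.936), Lcp2 (0.934), Ttc39b (0.922) and Cd226 (0.911). Among the members, r with Trdc was highest for Cd247 (0.940) and lowest for Tcrg-C1 (0.584) and Tcrg-C4 (0.537). These are descriptions over sums that share libraries and their depth.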

How the data were processed

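The authors deposited 1 mouse matrix of UMI counts with gene symbols, whose barcodes carry a library suffix, and a table that names the cell type of each barcode. Per the submitters' processing notes, Cell Ranger 3.0.2 and mm10 were used. Naming of cells, doublet removal, free RNA correction and the sequencer of each library are not given in the sources. The 2 rat libraries and the 378 unnamed barcodes entered no comparison. Library totals ran from 571042 to 6631004 UMIs.

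For each cell name, counts were added up within a sample (Python 3.11.15, numpy 2.4.6, scipy 1.17.1, pandas 2.3.3) where a sample had at least 20 cells. Sums were tested with edgeR 4.0.16 (R 4.3.3): TMM factors, filterByExpr at a minimum of 10 counts, and quasi-likelihood fits with no covariate (library as a block for the contrast of receptor classes) and Benjamini-Hochberg adjustment over all genes tested, at a threshold of 0.05. Shares were tested with exact two-sided permutation tests. Levels per library are CPM without TMM. Alternatives were RLE factors, DESeq2 1.42.0, no filter, control libraries 2-1 and 2-2 apart, replicate number as a block, each sample left out, barcodes over 20% haemoglobin or Scrublet doublets (scanpy 1.11.5; 103 of 16050 barcodes, 0.214% to 1.34% per library) removed, other class rules and thinning to 400 UMIs. The fit with the knockout-labelled libraries added up to 1 sample and the class contrast, with its alternatives, were added after the data were seen.

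The members and gene lists were chosen with earlier results of these data known. All 10 members are named, with the 5 genes outside the members most like Cd3e and Trdc and up to 4 genes per list. Genes of the class contrast were named from the 8 largest passing changes in each direction, the marker lists and the pathway lists, after their values were seen. Scripts were tested on simulated data. Sequences came from RefSeq and GENCODE annotation of the mm10 genome (GRCm38).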

Additional observations from a re-analysis of the deposited data

Results flagged for a closer look

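Barcodes without a cell type name entered no comparison, yet they held transcripts of the 10 genes. Their summed level was 3393, 3631 and 3154 CPM in the 35, 41 and 47 such barcodes of libraries 1, 2 and 3 labelled Icam1 knockout, of which 15, 26 and 15 had a constant gene UMI. It was 772 and 109.9 CPM in the 15 and 38 barcodes of NOD control 2-1 and 2-2, and 59.2 and 3083 CPM in the 187 and 9 barcodes of C57BL/6 3 and 4. Each of these lies above the upper 95% limit of the level in nerve cells of the same library. The 6 unnamed barcodes of C57BL/6 1 had 0 UMIs of the 10 genes.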

How the results depend on the processing

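Besides the values below, 182 comparison-wide recalculations kept the direction of a share difference or a similar count of passing genes. No p-value entered the rule for shares. For single genes, 316 recalculations kept the direction and the side of the threshold. Among single genes 50 lost their call, 10 gained one and 19 turned, all of the last without a call to lose except Tcrg-C4. Where a value changed, the cause was not tested unless the setting itself leaves fewer samples or genes.

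With the label against NOD control, 744 genes passed in CD4 cells (458 higher, 286 lower), against 177 by DESeq2 and 78 with the label's libraries added up to 1 sample (24 higher, 54 lower). Leaving out samples gave 235 (without NOD control 2) to 1237 (without NOD control 1; 644 higher, 593 lower). Over CD4 and CD8 cells 960 passed, against 278 by DESeq2, 99 with the label's libraries added up, and 267 (without NOD control 2) to 1498 (without NOD control 1). Without NOD control 2 the median log2 fold change of all genes was 1.48 and 2.53, and without a filter 0.28 and 0.35. Tcrg-C1, at -0.05 in CD4 cells, stood at 0.074 by DESeq2, 0.11 without a filter, 0.13 with the label's libraries added up and -0.20 to 1.21 with samples left out. Over both names, at 0.02, it was -0.0022 with control libraries 2-1 and 2-2 apart and -0.058 to 1.17 with samples left out, while Tcrg-C4 ran from -0.85 to 0.59.

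Equal replicate numbers did not pair the samples: deviations correlated at r = 0.0167 and 0.0198 in CD4 cells and 0.0006 and -0.0070 over both names. With the replicate block 127 genes passed in CD4 cells, 4 of them members and all higher, and 150 over both names, with 2 members. Tcrg-C1 was then at 0.27 in CD4 cells. No paired analysis was possible between the strains because they share only number 1.

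Between the strains 24 genes passed, against 15 with RLE factors, 59 without a filter, 47 with control libraries apart and 2 (without NOD control 2) to 26 (without C57BL/6 3); it was 4 without NOD control 1 and 6 without C57BL/6 4. With samples left out Cd3e ran from -1.47 to 1.20, Trac from -4.07 to 0.15, Trbc2 from -1.63 to 0.15 and Tcrg-C4 from -0.17 to 0.73.

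Between receptor classes 133 genes passed in CD4 cells and 69 (without library 1) to 113 (without library 2) with a library left out, 83 without library 3. In CD8 cells 158 passed and 47 (without library 2) to 110 (without library 1), 86 without library 3. In CD4 cells Cd3d was at -0.067 and Cd3e at -0.10 without a filter, and Cd3d at -0.0031 to 0.21 with a library left out. Without the block 134 and 187 genes passed.

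Differences in class shares, in percentage points, turned in these cases. With 2 UMIs to a class the alpha-beta difference was -2.04 in CD4 cells, -5.43 over both names and 4.06 between strains, and the gamma-delta difference 0.060 over both names and -1.41 between strains. With Trac and Trdc alone the gamma-delta difference was 3.60 and 4.90. After thinning, CD3 only differed by 3.55 and 3.42. With samples left out, the strains differed by -35.6 to 2.93 in alpha-beta, -5.38 to 2.10 in CD3 only and -3.22 to 41.5 in cells with none.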
